A study of Mus musculus with 20 samples.

Results

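Levels of 42 cell cycle genes were described in sorted tumour endothelial cells. The set was a named list of genes, matched by symbol to the gene IDs of the count tables, and each of the 42 matched 1 ID of the 46983 in the tables. By their known roles 17 act in S phase (the phase of DNA replication), 20 act in mitosis or peak shortly before it, 3 act in G1 (the phase before replication) and 2 are inhibitors. The rule uses no measured value.

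Proliferating cells commit to division in G1, when D-type cyclins activate the kinases Cdk4 and Cdk6, the retinoblastoma protein is phosphorylated and E2F factors switch on the genes of DNA replication. Mitotic genes are switched on later, through promoters that carry a short element called CHR together with CCAAT boxes, and the inhibitors Cdkn1a (p21) and Cdkn1b (p27) bind cyclin-kinase complexes and hold cells back. Endothelial cells of a resting vessel divide rarely, while those of a growing tumour can re-enter the cycle.

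RNA was sequenced from CD31-positive cells (CD31 or Pecam1 marks the endothelial surface) taken from E0771 tumours, a mouse mammary carcinoma line injected into the mammary tissue of C57BL/6J mice and grown to 500 mm3. All hosts thus shared strain, tumour line and tumour size at collection, and they differed in genetic background. Hosts counted as competent for CD4 T cells were wild type (WT, n = 4 libraries), CD8KO (n = 3) and Tie2Cre (n = 3). Hosts counted as deficient were CD4KO (n = 3), TCRKO (n = 3) and Tie2Cre;H2Ab fl/fl (n = 4, named Tie2Cre_H2Abf in the libraries), in which Tie2Cre, active in endothelial and blood cells, is combined with a floxed H2-Ab1 gene. Each library is named by background and label number. The labels do not tie libraries to single mice, so the p-values cover the spread between libraries only, which may be technical, and they give no age.

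The shallowest library, Tie2Cre_9501, had 1543892 counts and the deepest, Tie2Cre_H2Abf_9589, had 11478923, and protein-coding genes held 12.8% to 81.0% of them. H2-Ab1 was at 0.712 to 6.37 CPM (counts-per-million of the effective library size) in the Tie2Cre_H2Abf libraries and at 25.4 to 96.1 CPM in the Tie2Cre libraries. Cd8a was at 39.0 to 69.7 CPM in the libraries labelled CD8KO and at no more than 2.94 CPM in all the others. Cd4 was at 4.22 to 15.7 CPM in the libraries labelled CD4KO and at 0.379 to 15.6 CPM in WT. Trac, a gene of the T cell receptor, was at 0.616 to 1.07 CPM in the libraries labelled TCRKO and at 0 to 0.82 CPM in WT. It rested on 3 to 9 and on 0 to 1 counts per library. RNA of these 3 genes was thus not lower in the libraries labelled as knockouts than in WT. All 12 endothelial markers were counted in every library, summing to 2250 to 7467 CPM. Of 12 epithelial or tumour cell markers 3 passed the filter on low counts, the list summed to 0 to 23.1 CPM, and Epcam had 1 count in 1 library and 0 in the other 19. The 12 macrophage markers summed to 93.2 to 744 CPM. In bulk RNA, fewer dividing cells and less RNA per dividing cell cannot be told apart.

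The division of the list into replication and mitosis was first set beside the letters of the members' promoters. RefSeq promoter windows (GRCm38.p6, 250 bases before to 50 after a gene's start) were matched by symbol for 35 of the 42 members, giving 37 windows. Both strands were searched for the CHR letters TTTGAA or TTCGAA, for CCAAT, and for the E2F letters TTTGGCGC, TTTCCCGC, TTTGCCGC or TTTCGCGC. Motifs may overlap, as at Mcm6, where E2F matches on opposite strands share bases. The 4 windows that follow are the 150 bases before the start, with every match in capitals (ATTGG and TTCAAA are matches read on the other strand), and were chosen for the kinase and the cyclosome activator of mitosis, the mitotic motor Kif11 and a helicase subunit of replication. The Cdk1 window is chr10:69352913-69353062, minus strand. The Cdc20 window is chr4:118437344-118437493, minus strand. The Kif11 window is chr19:37376232-37376381, plus strand. The Mcm6 window is chr1:128359706-128359855, minus strand.
Cdk1: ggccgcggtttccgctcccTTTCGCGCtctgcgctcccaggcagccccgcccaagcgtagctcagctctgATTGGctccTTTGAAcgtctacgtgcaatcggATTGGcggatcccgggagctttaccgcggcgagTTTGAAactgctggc
Cdc20: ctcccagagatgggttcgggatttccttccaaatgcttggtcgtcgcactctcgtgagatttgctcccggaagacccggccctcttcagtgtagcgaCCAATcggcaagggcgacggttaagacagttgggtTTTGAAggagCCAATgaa
Kif11: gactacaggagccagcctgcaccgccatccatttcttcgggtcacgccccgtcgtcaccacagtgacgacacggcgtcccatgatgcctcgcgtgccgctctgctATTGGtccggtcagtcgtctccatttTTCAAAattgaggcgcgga
Mcm6: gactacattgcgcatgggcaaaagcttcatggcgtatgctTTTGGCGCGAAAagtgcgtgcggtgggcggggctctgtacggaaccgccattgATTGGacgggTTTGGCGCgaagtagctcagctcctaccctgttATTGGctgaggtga

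Cdk1, the kinase that drives entry into mitosis, had 2 CHR matches, 2 CCAAT boxes read on the other strand and 1 E2F match in this stretch. Cdc20, which activates the ubiquitin ligase that ends metaphase, and Kif11, the motor that pushes spindle poles apart, each had 1 CHR match downstream of a CCAAT box. Mcm6, a subunit of the replicative helicase, had no CHR letters and 3 E2F matches.

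Over the list, CHR letters stood in 12 of 16 mitotic windows (75.0%), in 3 of 16 S phase windows (18.8%) and in 19.2% of all 32851 RefSeq windows. E2F letters stood in 7 of 16 S phase windows (43.8%), in 1 of 16 mitotic windows (6.25%) and in 2.26% of all windows. CCAAT stood in 87.5% of mitotic and 68.8% of S phase windows, against 37.4% of all windows. Other mitotic genes, a list of 35 given further on, had CHR letters in 71.9% of 32 windows and E2F letters in 0 of them, and 31 other S phase genes had E2F letters in 37.0% of 27 windows and CHR letters in 11.1%. Neither G1 window (Cdk4 and Cdk6) held any of the motifs. A match is a description of the letters and not of binding.

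**Figure D1:**
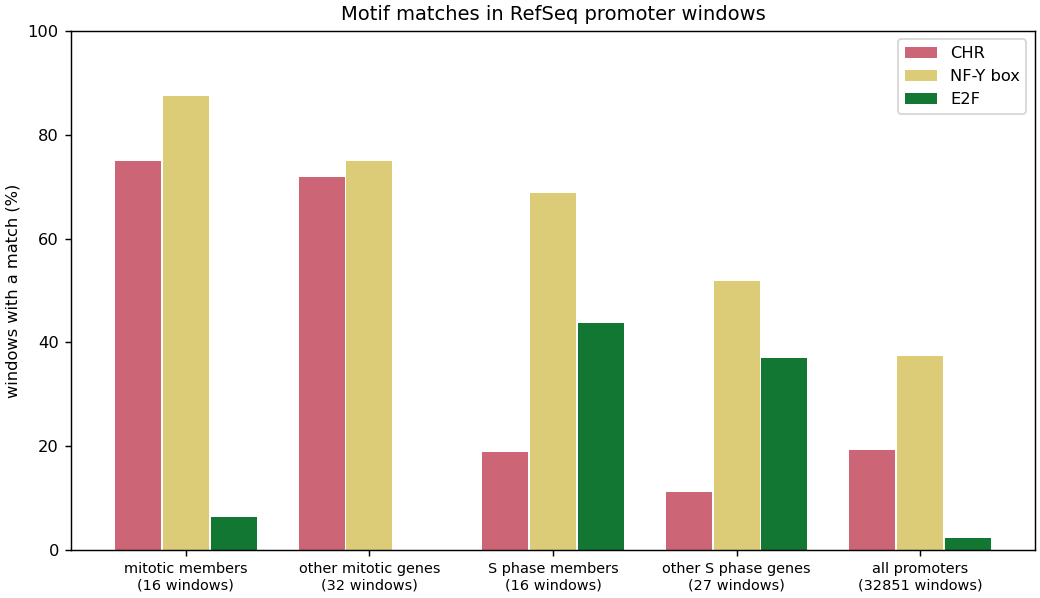
Share of RefSeq promoter windows (percent, y axis) with at least 1 match to CHR, the NF-Y box (the CCAAT letters) or E2F, for the mitotic and S phase members, for other genes of both phases and for all windows (x axis). CHR bars are high in the mitotic lists (75.0% and 71.9%) and E2F bars in the S phase lists (43.8% and 37.0%), against 19.2% and 2.26% of all windows.

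Counts of the members were low. Of the 42 members 41 passed the filter on low counts, the exception being Ccne2 (cyclin E2), with 0 counts in 7 libraries. Counts above 0 were found in all 20 libraries for 19 members (7 of S phase, 7 of mitosis, all 3 of G1 and both inhibitors), and 23 members were at 0 in at least 1 library. WT_9771 had 10 members at 0 and 18 at 3 counts or fewer, and Tie2Cre_9501 had 6 and 17. The 4 WT libraries had 5 to 10 members at 0, the 4 Tie2Cre_H2Abf libraries 0 to 2. A floor of 3 counts equals 0.128 CPM in CD8KO_9752 and 2.46 CPM in WT_9771, and a value of 0 below is a level under that floor and not absence.

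Per length and depth, in transcripts-per-million (TPM), the highest median over the 20 libraries was that of Ccnd1 (cyclin D1) at 42.2 TPM. Cdkn1a followed at 27.4 TPM and Cdk4 at 27.2 TPM. Pcna, the sliding clamp of the DNA polymerases, came next at 15.8 TPM and Tyms, which makes thymidylate for DNA, at 12.8 TPM. The mitotic members lay lower, from 0.525 TPM for the checkpoint kinase Bub1 to 6.92 TPM for Mki67 (the Ki-67 protein that coats mitotic chromosomes), with a median of 2.09 TPM against 2.92 TPM for S phase members. Cyclin E genes were lowest, with Ccne1 at 0.425 TPM and Ccne2 at 0.170 TPM.

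The spread over libraries was wide for most members. The coefficient of variation of the CPM over the 20 libraries had a median of 0.800 and ran from 0.354 for Mki67 to 1.72 among mitotic members. Coefficients were also among the lower ones for Ccnd1 (0.387), Tyms (0.406), Cdk4 (0.414) and Pcna (0.438). Cdk4 still ran from 0.82 to 59.2 CPM and Tyms from 0 to 25.3 CPM. Median coefficients were 0.841 for S phase and 0.816 for mitotic members.

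**Figure D2:**
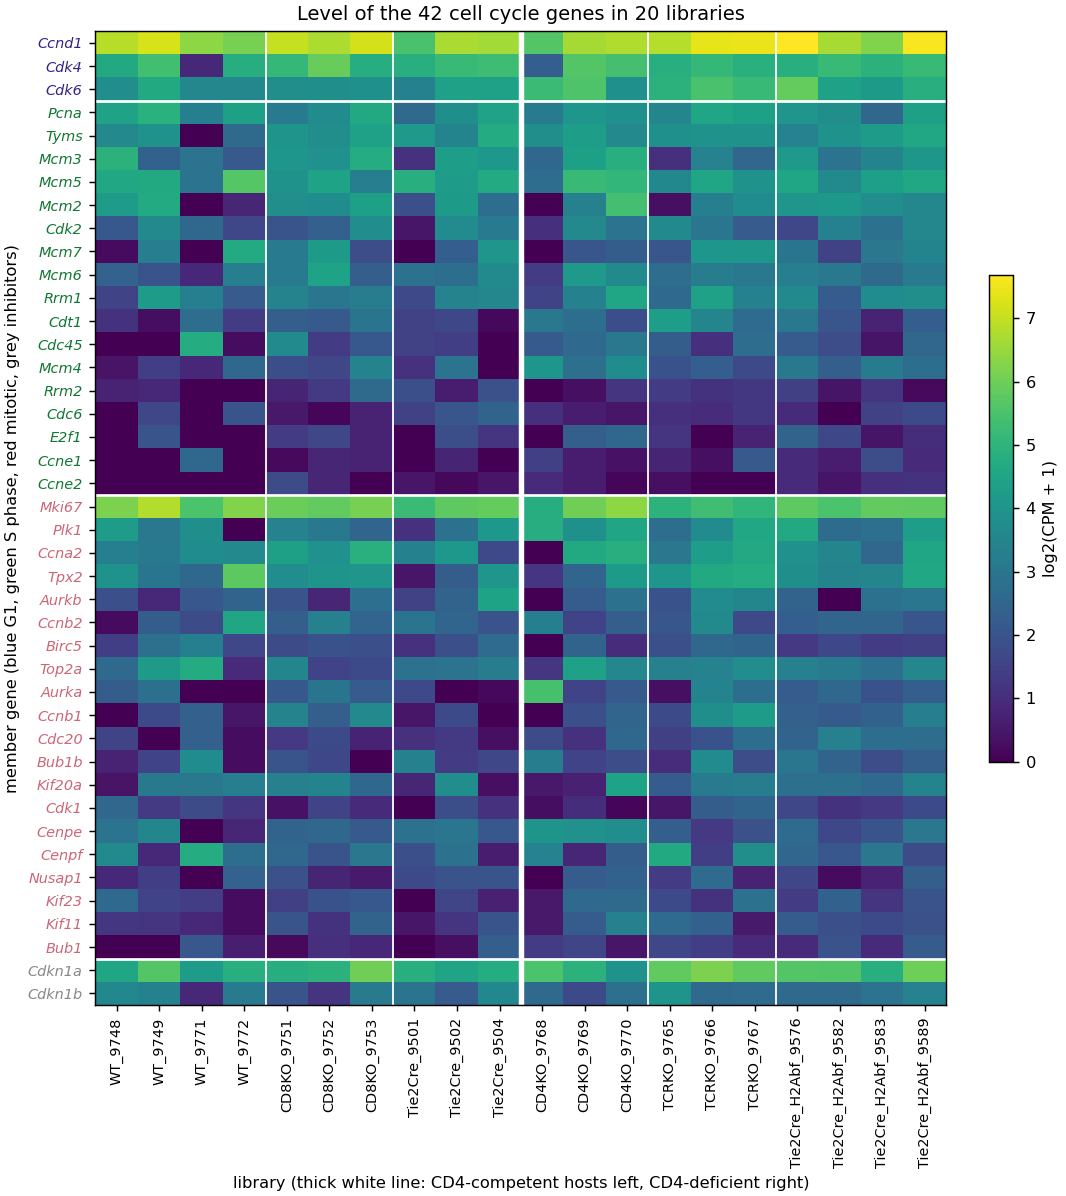
Level of the 42 members (rows, grouped by role and sorted by median TPM) in the 20 libraries (columns, grouped by host background), as log2(CPM + 1). Ccnd1 and Mki67 are bright throughout, while members at 3 counts or fewer are most numerous in WT_9771 (18) and Tie2Cre_9501 (17), followed by CD4KO_9768 and WT_9772 (13 each).

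Summed over their genes, the S phase members reached 66.2 to 199 CPM per library and the mitotic members 89.8 to 244 CPM. CD4KO_9770 was highest in both sums (199 and 244 CPM). Tie2Cre_9501 had the lowest mitotic sum, and its S phase sum of 72.8 CPM lay close to the lowest, the 66.2 CPM of CD4KO_9768. By background the S phase sum was 116 ± 30.3 CPM in WT (SD, n = 4), 135 ± 18 in CD8KO (n = 3), 115 ± 38.2 in Tie2Cre (n = 3), 143 ± 68.7 in CD4KO (n = 3), 120 ± 26.8 in TCRKO (n = 3) and 125 ± 25.3 in Tie2Cre_H2Abf (n = 4). The mitotic sum was 180 ± 16.4 CPM in WT, 162 ± 12.9 in CD8KO, 126 ± 31.2 in Tie2Cre, 188 ± 50.6 in CD4KO, 176 ± 43.4 in TCRKO and 159 ± 33.1 in Tie2Cre_H2Abf, with the same n. The ranges of competent and deficient hosts overlapped in both sums (72.8 to 154 against 66.2 to 199 CPM for S phase, 89.8 to 196 against 126 to 244 CPM for mitosis). The ratio of the mitotic to the S phase sum had a median of 1.29 in competent and 1.32 in deficient hosts. Mki67 alone made up a median of 38.9% of the mitotic sum in competent and 29.7% in deficient hosts. The mitotic sum and this ratio thus weigh Mki67 most and can hide the direction of the other mitotic members.

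**Figure D3:**
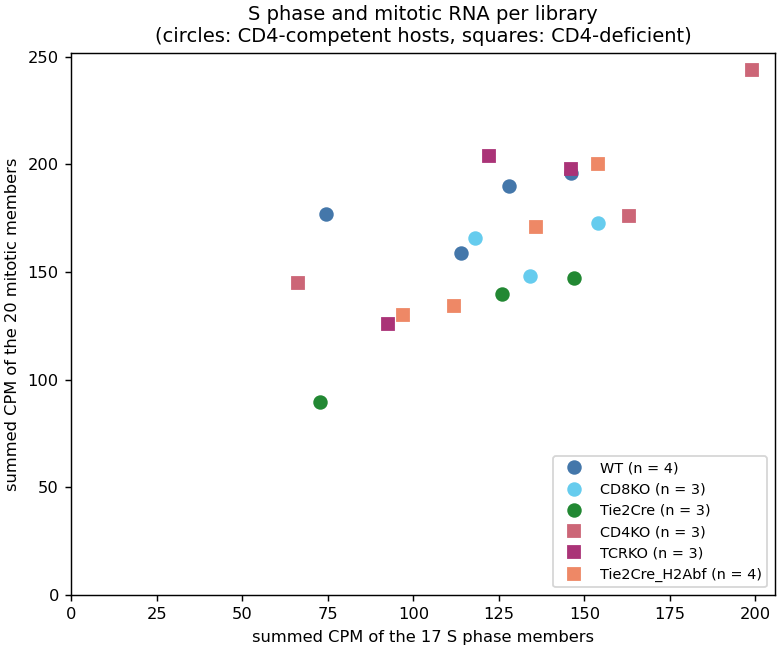
Summed CPM of the 17 S phase members (x axis) against the 20 mitotic members (y axis), 1 point per library, with circles for CD4-competent and squares for CD4-deficient hosts. Backgrounds intermingle: CD4KO_9770 lies at the upper right (199 and 244 CPM) and Tie2Cre_9501 at the lower left (72.8 and 89.8 CPM).

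The main comparison set the 10 libraries of CD4-deficient against the 10 of CD4-competent hosts, the division the submitters made. The backgrounds on each side were pooled and their libraries taken as replicates, although CD4 status was assigned by background. By edgeR's quasi-likelihood test with Benjamini-Hochberg adjustment over 14876 genes, 0 of 41 members and 0 of all genes (0%) passed an adjusted p of 0.05. At an unadjusted p under 0.05 there were 3 of 41 members, Cdk6, Cdc20 and Cdt1, all with higher estimates in deficient hosts, beside 7.26% of all genes. No member and no other gene tested (0%) had levels that did not overlap between the hosts. DESeq2 and limma-voom called 0 members as well. The count of 3 is close to the share over all genes and is not a result about the list.

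Cdk6, the G1 kinase activated by D-type cyclins, had the smallest p of the members. It was at 12.6, 24.4, 10.7 and 10.8 CPM in WT, at 13.0, 13.1 and 13.5 CPM in CD8KO and at 9.47, 20.1 and 20.2 CPM in Tie2Cre. Among deficient hosts it was at 36.5, 46.2 and 13.4 CPM in CD4KO, at 29.9, 43.8 and 35.5 CPM in TCRKO and at 57.2, 20.2, 17.4 and 27.1 CPM in Tie2Cre_H2Abf. Of the 10 deficient libraries 7 lay above all competent ones, and CD4KO_9770, Tie2Cre_H2Abf_9582 and Tie2Cre_H2Abf_9583 lay within their range. The means were 14.8 ± 4.99 and 32.7 ± 13.9 CPM (SD, n = 10 each), a log2 change of 1.14 ± 0.29 (SE) with an unadjusted p of 0.000507 and an adjusted p of 0.377 by edgeR. The adjusted p ran from 0.0641 (no filter on low counts) to 0.999 (only libraries numbered 97xx) over the alternatives, and the estimate from 1.00 to 1.29. On the deposited TPM scale the log2 ratio of the means was 0.45 against 1.15 in CPM. The macrophage markers summed to 178 to 744 CPM in competent and 93.2 to 740 CPM in deficient hosts, and T cell markers to 1.14 to 91.0 and 4.6 to 36.0 CPM. The T cell sum rested on few genes and does not measure T cell content. In CD8KO it was 50.3 to 71.4 CPM, with Cd8a alone at 39.0 to 69.7 CPM, and Il7r reached 55.8 CPM at its highest. Cd3e, Cd3d and Cd3g were at 0 in 13, 18 and 17 of the 20 libraries. The part of both marker lists in the Cdk6 level was not tested.

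The partner cyclin and the sister kinase of Cdk6 overlapped between the hosts. Ccnd1 was at 44.0 to 147 CPM with a median of 105 CPM in competent and at 48.9 to 205 CPM with a median of 111 CPM in deficient hosts. Cdk4 ranged from 0.820 CPM in WT_9771 to 59.2 CPM in CD8KO_9752 among competent hosts (median 30.6) and from 3.93 to 48.1 CPM among deficient hosts (median 31.8). Both medians thus lay inside the other group's range.

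Cdc20 ran from 0 to 4.10 CPM in competent hosts with a median of 1.29 and from 1.15 to 9.14 CPM in deficient hosts with a median of 4.77. The ranges overlapped, and the 4 Tie2Cre_H2Abf libraries, at 4.43, 9.14, 5.87 and 5.65 CPM, were each above every competent library. The log2 change was 1.76 ± 0.66 (SE) with an edgeR adjusted p of 0.537, and 1.10 among libraries numbered 97xx alone, which leave out both Tie2Cre groups. Cdt1, which loads the replicative helicase on DNA, had medians of 2.04 CPM (0.126 to 6.96) and 5.67 CPM (0.712 to 18.8) and a log2 change of 1.28 ± 0.61 with an edgeR adjusted p of 0.675.

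By role, 17 of 20 mitotic members had a higher estimate in deficient hosts (median log2 change 0.25) and 9 of 16 tested S phase members did (median 0.12), while the median over all genes tested was -0.11. Without WT_9771 and Tie2Cre_9501 the counts were 14 of 20 and 7 of 16. The counts ran from 12 to 17 mitotic and from 7 to 10 S phase members over 8 alternative settings. Mki67 went the other way from most mitotic members, with medians of 59.0 CPM (36.8 to 110) in competent and 49.6 CPM (26.6 to 82.6) in deficient hosts. Top2a, the topoisomerase that untangles chromosomes, was at 0.946 to 25.4 CPM (median 6.51) and at 1.31 to 20 CPM (median 9.43). Ccnb1 (cyclin B1, the partner of Cdk1) was at 0 to 11.3 CPM (median 2.32) and at 0 to 17.7 CPM (median 4.17). Cdk1 was at 0 to 4.80 CPM (median 1.41) and at 0.074 to 4.55 CPM (median 1.30). The log2 ratio of its means was 0.01 in CPM, -0.77 in the deposited TPM and 0.07 in TPM without CD8KO_9752, the library with the highest protein-coding share.

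Among S phase members Mcm2 was at 0 to 25.1 CPM with a median of 12.6 in competent and at 0 to 40.6 CPM with a median of 11.5 in deficient hosts. Pcna was at 5.31 to 29.3 CPM (median 16.5) and at 4.81 to 22.3 CPM (median 14.3). Mcm6 was at 0.820 to 20.8 CPM (median 6.14) and at 1.53 to 17 CPM (median 7.81), and the log2 ratio of its means was 0.14 in CPM. In the deposited TPM it was -0.95, and 0.11 without CD8KO_9752, so that the negative sign rested on this library. Mcm4 had the largest estimate of the helicase subunits, a log2 change of 1.15 ± 0.62 (SE) with an edgeR adjusted p of 0.742. It was at 0 to 9.86 CPM (median 1.89) in competent and at 2.27 to 15.5 CPM (median 5.97) in deficient hosts. Mcm3 (-0.22), Mcm5 (-0.14) and Mcm7 (-0.28) had lower estimates in deficient hosts. The levels of each helicase subunit in the list and of the clamp overlapped between the hosts.

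Of the inhibitors, Cdkn1a, the p53 target p21, was at 18 to 63.6 CPM with a median of 27.3 in competent hosts and at 14.5 to 71.3 CPM with a median of 48.1 in deficient hosts. Its mean was 0.54 higher in deficient hosts on the log2 scale in CPM, and its log2 ratio on the deposited TPM scale was -0.28 with and 0.48 without CD8KO_9752. Cdkn1b (p27) was at 0.820 to 11.1 CPM (median 7.29) and at 2.30 to 14.9 CPM (median 5.35).

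**Figure D4:**
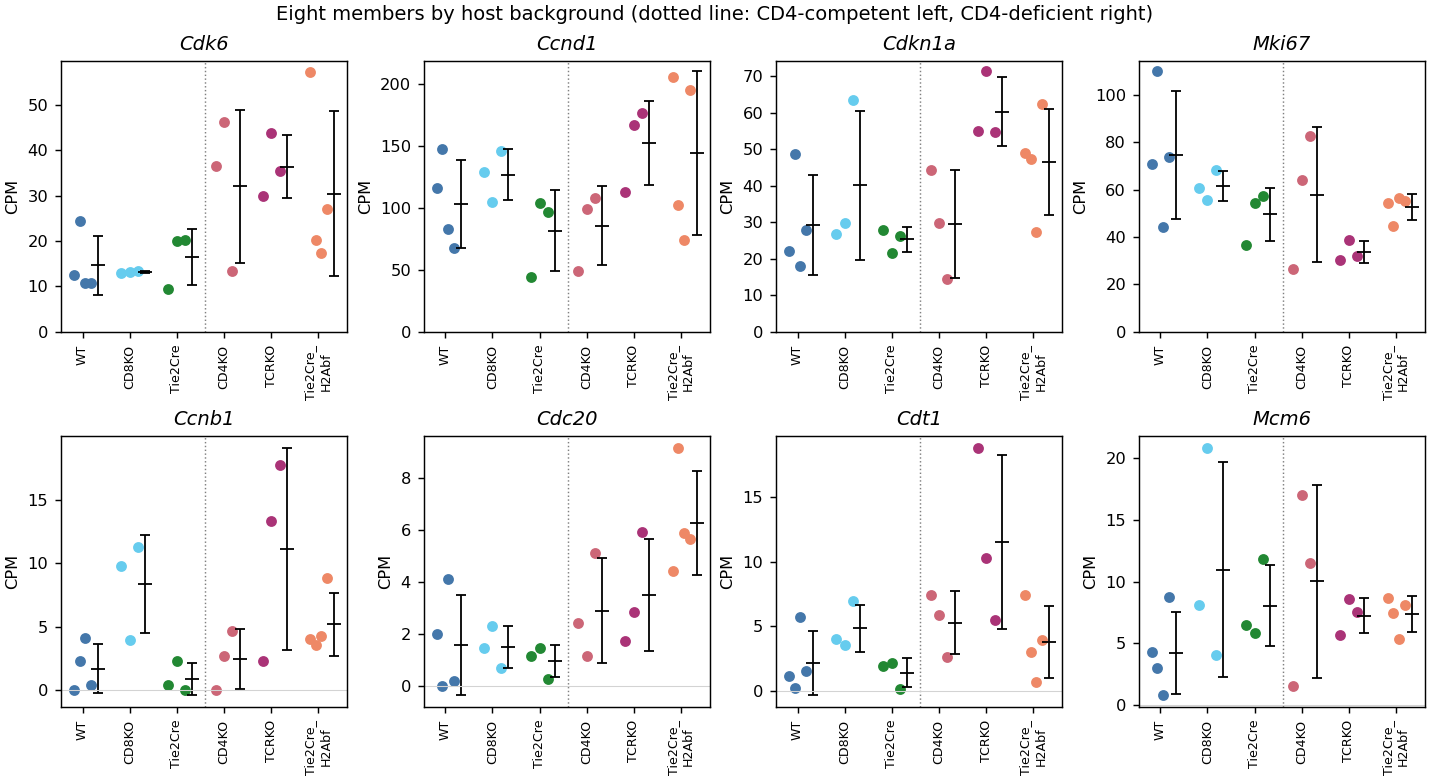
CPM of 8 members (y axis, each panel with its own scale) in the 6 host backgrounds (x axis), with 1 point per library and a bar for the mean ± SD beside it. Cdk6 lies at 9.47 to 24.4 CPM left of the dotted line, in CD4-competent hosts, and at 13.4 to 57.2 CPM right of it, while Mki67 is lowest as a group in TCRKO (30.1 to 38.8 CPM).

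TCRKO against WT compared a background named for loss of the T cell receptor with the wild type. With edgeR 0 of 41 members and 4 of 14876 genes (0.0269%) passed the adjusted p of 0.05, and 5 of 41 members (12.2%) had an unadjusted p under 0.05 beside 8.66% of all genes. These were Mki67 with a lower estimate and Cdt1, Cdk6, Cdkn1a and Ccnb1 with higher ones. DESeq2 called 1 member, Mki67, and 1.36% of the genes it gave an adjusted p.

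Mki67 was at 30.1, 38.8 and 32.1 CPM in TCRKO and at 70.7, 110, 44.3 and 73.6 CPM in WT. The groups did not overlap, the nearest WT library being WT_9771. The log2 change was -1.15 ± 0.41 (SE), with an adjusted p of 0.528 by edgeR and of 0.00334 by DESeq2 and a range of estimates of -1.28 to -1.0 over the alternative settings. Mki67 made up 15.7% to 23.9% of the summed mitotic CPM in TCRKO and 25% to 56.1% in WT.

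Most other mitotic members had higher estimates in TCRKO: 15 of 20, with a median of 0.52 against -0.20 over all genes tested. Ccnb1 was at 2.34, 13.3 and 17.7 CPM in TCRKO and at 0, 2.34, 4.10 and 0.379 CPM in WT, so TCRKO_9765 lay within the WT range and the other two above it. Top2a was at 9.24, 9.62 and 12.7 CPM in TCRKO and at 5.13, 17.2, 25.4 and 0.946 CPM in WT, Cdk1 at 0.369, 3.80 and 4.55 CPM and at 4.80, 1.49, 2.46 and 1.32 CPM. For these, TCRKO lay within or across the WT range.

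Of S phase members 9 of 16 had higher estimates in TCRKO (median 0.40). Cdt1 was at 18.8, 10.3 and 5.46 CPM against 1.16, 0.212, 5.74 and 1.51 CPM in WT, a log2 change of 2.59 ± 1.03 with an edgeR adjusted p of 0.542. Only TCRKO_9767 lay below the highest WT library. Mcm2 was at 0.246, 9.03 and 12.3 CPM against 17.5, 25.1, 0 and 0.757 CPM, Mcm6 at 5.67, 8.55 and 7.50 CPM against 4.30, 2.97, 0.820 and 8.71 CPM, and Pcna at 10.3, 22.3 and 19.6 CPM against 20.4, 29.3, 9.02 and 19.7 CPM. Those 3 genes overlapped between the groups.

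Of the regulators, Cdk6 lay higher in each TCRKO library than in any WT library (29.9 to 43.8 against 10.7 to 24.4 CPM), with a log2 change of 1.31 ± 0.52 and an edgeR adjusted p of 0.544. Cdkn1a was at 54.9, 71.3 and 54.8 CPM in TCRKO and at 22.2, 48.8, 18 and 27.8 CPM in WT, also without overlap, a log2 change of 1.04 ± 0.46 with an edgeR adjusted p of 0.562. Ccnd1 was at 113, 167 and 176 CPM against 116, 147, 82.8 and 67.6 CPM, Cdk4 at 27.8, 33.9 and 28.2 CPM against 24.5, 39.7, 0.820 and 26.5 CPM and Cdkn1b at 14.9, 5.23 and 5.46 CPM against 11.1, 9.34, 0.820 and 7.76 CPM. In all, 4 of 41 members did not overlap between TCRKO and WT: Mki67, Cdk6, Cdkn1a and Rrm2, the small subunit of ribonucleotide reductase. That is 9.76% of the members beside 7.68% of all genes tested, a share near the background. Rrm2 was near the floor, at 1.19 to 1.60 CPM in TCRKO (29 counts) and at 0 to 0.849 CPM in WT (8 counts). The floor of 3 counts in WT_9771 is 2.46 CPM, above all of these levels. The WT libraries held 5 to 10 members at 0 and the TCRKO libraries 0 to 2, and the part of depth in these differences was not tested. Of 11 fibroblast markers tested 1, Col6a2, was called higher in TCRKO (12.1 to 20.7 CPM against 0 to 0.820 CPM, adjusted p 0.0338 by edgeR), and that list summed to 31.5 to 43.0 CPM in TCRKO and 0.425 to 44.3 CPM in WT. The epithelial markers summed to 5.42 to 18.2 and 0.212 to 18.9 CPM, with Krt8 at 1.11, 15.4 and 6.82 CPM in TCRKO and at 0 to 0.568 CPM in WT. The rest of that list did not share this direction. Of the 3 epithelial markers tested 1 had a higher and 2 a lower estimate in TCRKO, with a median log2 change of -0.72. Krt18 and Epcam were at 0 in each TCRKO library. The endothelial markers had a median log2 change of -0.24 and summed to 2441 to 3713 and 2250 to 5479 CPM. Their part in the members' levels was not tested.

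CD4KO against WT compared hosts without CD4 T cells, as labelled, with the wild type. With edgeR 0 of 41 members and 0 of 14876 genes (0%) passed, and 2 of 41 members, Mcm4 and Cdk6, had an unadjusted p under 0.05 beside 8.6% of all genes. DESeq2 and limma-voom called 0 members. Mcm4, another helicase subunit, was at 15.5, 6.14 and 12.4 CPM in CD4KO and at 0.331, 1.70, 0.820 and 5.11 CPM in WT, without overlap, a log2 change of 2.45 ± 1.07 with an edgeR adjusted p of 0.573. Also without overlap were Cenpe, a kinetochore motor, at 14.8, 13.7 and 12.5 CPM against 6.62, 10.6, 0 and 0.757 CPM (log2 change 1.55 ± 0.87), and, in the other direction, Cdk1 at 0.218, 1.02 and 0.074 CPM against 4.80, 1.49, 2.46 and 1.32 CPM (log2 change -2.48 ± 1.47). Cdk1 rested on 1, 8 and 1 counts in CD4KO and on 29, 7, 3 and 7 counts in WT. These 3 of 41 members (7.32%) stood beside 3.92% of all genes tested that did not overlap. Cdk6 had a log2 change of 1.12 ± 0.52, with CD4KO_9770 at 13.4 CPM inside the WT range. Kif11 was at 0.437, 3.71 and 9.32 CPM against 1.32, 1.27, 0.820 and 0.189 CPM, with CD4KO_9768 inside the WT range, and a log2 change of 2.29 ± 1.16.

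The 3 CD4KO libraries differed widely from each other. Mki67 was at 26.6, 64.2 and 82.6 CPM, Mcm2 at 0, 9.08 and 40.6 CPM, Mcm6 at 1.53, 17 and 11.5 CPM and Ccnb1 at 0, 2.69 and 4.66 CPM, with CD4KO_9768 lowest in each. Top2a was at 1.31, 20 and 10.9 CPM, Pcna at 7.86, 15.4 and 13.5 CPM, Ccnd1 at 48.9, 99.1 and 108 CPM and Cdk4 at 3.93, 48.1 and 41.4 CPM, again lowest in CD4KO_9768. That library had 9 members at 0 and the other two had none. Cdkn1a ran the other way there, at 44.3 CPM in CD4KO_9768 and at 29.8 and 14.5 CPM in the others, and Cdkn1b was at 5.24, 2.30 and 6.22 CPM. The median log2 change over the members was 0.34 and became 0.88 without CD4KO_9768, against -0.08 over all genes tested.

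CD8KO against WT compared hosts labelled as competent for CD4 T cells. The libraries labelled CD8KO held the Cd8a level given above and Cd4 at 0 to 4.32 CPM. With edgeR 0 of 41 members and 0 of 14876 genes (0%) passed, and 0 of 41 members had an unadjusted p under 0.05 beside 10.5% of all genes. DESeq2 and limma-voom called 0 members. The 3 smallest p-values were those of Ccnb1, Mcm6 and Rrm2. Ccnb1 was at 9.80, 3.97 and 11.3 CPM in CD8KO and at 0 to 4.10 CPM in WT, a log2 change of 2.46 ± 1.27 with an edgeR adjusted p of 0.484, and only CD8KO_9752 lay inside the WT range. Mcm6 was at 8.07, 20.8 and 4.06 CPM, with a log2 change of 1.33 ± 0.77, and Rrm2 at 0.721, 1.49 and 5.34 CPM against 0.662, 0.849, 0 and 0 CPM. Mki67 was even in these libraries, at 60.7, 55.7 and 68.1 CPM, within the WT range. Ccna2 (cyclin A2), at 19.6, 13.9 and 28.3 CPM against 8.94, 7.64, 12.3 and 11.4 CPM, did not overlap, as 1 of 41 members beside 5.16% of all genes tested. Of the other genes followed, Top2a was at 10.5, 1.92 and 2.32 CPM, Cdk1 at 0.288, 1.96 and 0.928 CPM, Mcm2 at 13, 12.3 and 19.8 CPM and Pcna at 8.07, 12.1 and 24.2 CPM. Ccnd1 was at 129, 105 and 146 CPM, Cdk4 at 33.9, 59.2 and 26.8 CPM, Cdkn1a at 26.8, 29.9 and 63.6 CPM and Cdkn1b at 3.03, 1.28 and 8.24 CPM. Each of these 8 genes overlapped with WT. Mitotic members had higher estimates in 8 of 20 cases (median -0.28; 13 of 20 and 0.51 with limma-voom) and S phase members in 11 of 16 (median 0.35).

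Tie2Cre_H2Abf against Tie2Cre compared hosts that share the Cre transgene and differ in the floxed H2-Ab1 gene. With edgeR 0 of 41 members and 3 of 14876 genes (0.0202%) passed, and 1 of 41 members, Cdc20, had an unadjusted p under 0.05 beside 8.58% of all genes. DESeq2 and limma-voom called 0 members. Cdc20 was at 4.43 to 9.14 CPM in the 4 Tie2Cre_H2Abf libraries and at 1.14, 1.46 and 0.252 CPM in Tie2Cre, without overlap, a log2 change of 2.72 ± 1.26 with an edgeR adjusted p of 0.573. Ccnb1 was at 4.07, 3.56, 4.27 and 8.83 CPM against 0.379, 2.31 and 0 CPM, also without overlap, as was the spindle kinase Aurka at 3.72, 5.08, 2.85 and 4.05 CPM against 2.27, 0 and 0.126 CPM. The Tie2Cre values lay near the floor of 3 counts, which equals 1.14 CPM in Tie2Cre_9501. Cdc20, Ccnb1 and Aurka rested on 17, 20 and 7 counts over the Tie2Cre libraries and on 151, 129 and 95 over Tie2Cre_H2Abf. These 3 of 41 members (7.32%) stood beside 9.04% of all genes tested that did not overlap, so their number is not a result about the list.

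In the same pair Ccnd1 was at 205, 102, 73.7 and 195 CPM against 44.0, 104 and 96.5 CPM, a log2 change of 0.82 ± 0.43 with an edgeR adjusted p of 0.585, and Cdkn1a at 49.0, 47.2, 27.4 and 62.5 CPM against 28, 21.6 and 26.3 CPM, a log2 change of 0.88 ± 0.48. Tie2Cre_H2Abf_9583 was the lowest of its group for both. Mki67 was at 54.5, 44.7, 56.4 and 55.0 CPM against 36.8, 54.4 and 57.3 CPM, and Top2a at 9.21, 7.96, 6.05 and 10.9 CPM against 6.44, 6.58 and 8.56 CPM, with overlap for both. Mcm2, at 15, 16.3, 12.6 and 10.7 CPM, was steadier in Tie2Cre_H2Abf than in Tie2Cre, where it was at 2.65, 17.3 and 5.79 CPM. Cdk1 was at 2.12, 1.19, 1.42 and 2.32 CPM against 0, 2.56 and 1.13 CPM, Mcm6 at 8.67, 7.45, 5.34 and 8.11 CPM against 6.44, 5.85 and 11.8 CPM and Pcna at 15.2, 12.9, 4.81 and 19.5 CPM against 5.31, 13.3 and 20.4 CPM. Cdk4 was at 27.4, 36.1, 29.7 and 35.9 CPM against 27.3, 35.9 and 38.3 CPM and Cdkn1b at 5.13, 5.25, 6.59 and 9.70 CPM against 6.82, 3.65 and 11 CPM, so all 5 overlapped. Mitotic members had higher estimates in 15 of 20 cases with a median of 0.47, and in 13 of 20 with a median of 0.19 without Tie2Cre_9501 and WT_9771.

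**Figure D5:**
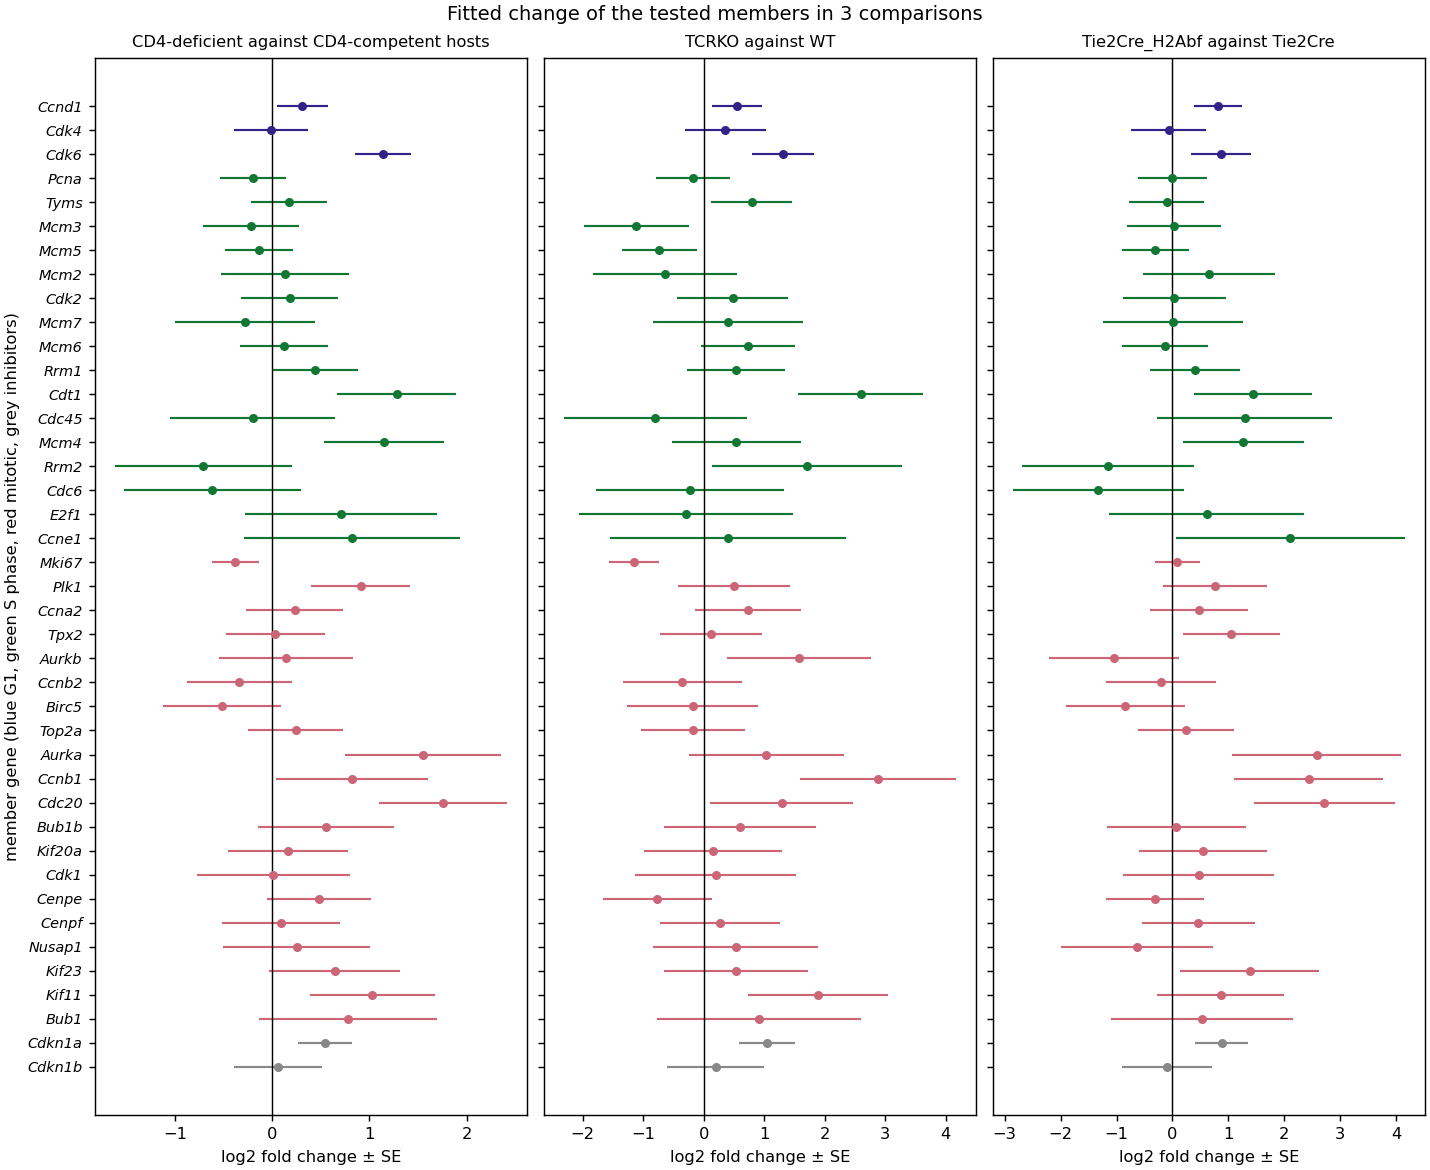
Fitted log2 fold change (x axis) with its standard error for the 41 tested members (y axis, coloured by role) in 3 comparisons by edgeR. Cdk6 lies to the right of 0 in all 3 panels, as do other members such as Cdt1, Cdc20 and Ccnd1. The first panel includes the libraries of the others, so the panels are not independent. Mki67 lies to the left at -1.15 in TCRKO against WT.

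Tie2Cre against WT compared 2 competent backgrounds whose libraries also differ in their label numbers. The labels do not say what the numbers stand for, and the transgene cannot be told apart from anything that goes with them. With edgeR 0 of 41 members and 0 of 14876 genes (0%) passed, and 0 of 41 members had an unadjusted p under 0.05 beside 6.88% of all genes. Likewise 0 of 41 did not overlap, beside 4.19% of all genes. DESeq2 and limma-voom called 0 members. Tpx2, which activates Aurora A on the spindle, was at 0.379, 3.78 and 15.6 CPM in Tie2Cre and at 14.4, 7.01, 4.92 and 52.4 CPM in WT, with WT_9772 alone above 20 CPM. The kinetochore protein Cenpf was at 2.65, 6.46 and 0.504 CPM against 11.6, 0.849, 26.2 and 5.87 CPM. Tyms was at 16.7, 9.99 and 25.3 CPM against 11.3, 14.4, 0 and 5.30 CPM. Mitotic members had lower estimates in 14 of 20 cases with a median of -0.57. Without Tie2Cre_9501 and WT_9771 higher estimates were found in 11 of 20, with a median of 0.12, so this direction rested on these libraries.

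Over the 6 backgrounds at once, edgeR's test for any difference passed 0 of 41 members and 9 of 14876 genes (0.0605%), and 1 of 41 members, Cdk6, had an unadjusted p under 0.05 (adjusted p of 0.514 by edgeR's quasi-likelihood fit) beside 9.37% of all genes. DESeq2 and limma-voom called 0 members. The comparisons with WT share its 4 libraries, and their estimates are not independent of each other.

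Other genes of the cycle gave 0 called genes too. The 4 further lists held 96 genes, of which 89 were tested: 31 S phase genes, 35 mitotic genes, 14 G1 and pocket protein genes and 16 inhibitors and p53 targets. At an unadjusted p under 0.05 there were 3 of 89 in the CD4 comparison (3.37%, beside 7.26% of all genes), 4 in TCRKO against WT (4.49%, beside 8.66%), 7 in CD4KO against WT (7.87%, beside 8.6%), 2 in CD8KO against WT (2.25%, beside 10.5%), 4 in Tie2Cre_H2Abf against Tie2Cre (4.49%, beside 8.58%) and 5 in Tie2Cre against WT (5.62%, beside 6.88%). Each share lay below that over all genes. Ccnd2 (cyclin D2), a second partner of Cdk6, was at 49.3, 36.5 and 62.3 CPM in TCRKO and at 11.6, 11.5, 21.3 and 21.2 CPM in WT, without overlap, a log2 change of 1.60 ± 0.52 with an edgeR adjusted p of 0.425. It was at 51.5, 36.3 and 20.6 CPM in CD4KO and at 15.6, 15.6, 6.94 and 12.6 CPM in Tie2Cre_H2Abf, so the deficient backgrounds did not share its level. Ube2c, the ubiquitin-conjugating enzyme that works with Cdc20, had means of 10.5 CPM in deficient and 4.64 CPM in competent hosts, a log2 change of 1.17 ± 0.48 with an edgeR adjusted p of 0.589. Others went the other way. Gins2 had means of 3.72 CPM in deficient and 8.39 CPM in competent hosts, a log2 change of -1.16 ± 0.49 (edgeR adjusted p 0.61). In CD4KO against WT, Ttk had a log2 change of -6.17 ± 2.15 (1 count against 58). Ckap2l had -3.72 ± 1.33 there (7 counts against 63), both with an edgeR adjusted p of 0.573.

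Replication-dependent histone genes, made in S phase and lacking a poly(A) tail, can be counted where total RNA is amplified, as here. Of 67 such genes 39 were tested and 0 were called in any comparison. Near-identical copies share reads, so single histone genes are uncertain. Their summed level was 129 to 342 CPM in TCRKO and 49.5 to 148 CPM in WT, with overlap. In that comparison 34 of 39 had higher estimates, with a median log2 change of 1.74, beside 5 of 39 (12.8%) at an unadjusted p under 0.05 where all genes gave 8.66%. S phase members had a median of 0.40 there. The other backgrounds compared with the same 4 WT libraries also had mostly higher histone estimates, 31 of 39 in CD4KO (median 0.91), 29 of 39 in CD8KO (0.62) and 30 of 39 in Tie2Cre (0.50). In Tie2Cre_H2Abf against Tie2Cre 18 of 39 were higher, with a median of -0.03. Medians over all genes tested were -0.20, -0.08, -0.18 and 0.02 for TCRKO, CD4KO, CD8KO and Tie2Cre against WT, and -0.24 for Tie2Cre_H2Abf against Tie2Cre. Between CD4-deficient and CD4-competent hosts 33 of 39 were higher in deficient hosts, with a median of 0.61 against -0.11 over all genes. There 0 of 39 had an unadjusted p under 0.05 by edgeR, beside 7.26% of all genes.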

How the data were processed

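CD31-positive cells were sorted from tumours, and MATQ cDNA from total RNA went into Nextera XT libraries, per the labels' protocols. That kit leaves strand unmarked, so sense and antisense reads were pooled. The submitters' processing notes name bcl2fastq 2.17, STAR (no version), RSEM 1.2.28, DESeq2 and build GRCm38. They give no annotation release. The authors deposited 1 table per library with an expected count and a TPM value per gene. The deposited expected counts are unnormalized estimates by RSEM; 4.45% were not whole, and all were rounded. The authors' TPM values correct for length and depth and serve here as description only.

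Libraries were grouped by their labels. The members and lists were chosen with earlier results of these data known. edgeR 4.0.16 in R 4.3.3 was used with TMM factors (0.523 to 3.69), filterByExpr by group and robust quasi-likelihood fits, 2 groups for CD4 status and 6 groups otherwise, with Benjamini-Hochberg adjustment over 14876 genes. CPM values use effective library sizes, and standard errors come from the F statistic. The scripts were tested on simulated data. Values in every library are given for Mki67, Top2a, Ccnb1, Cdk1, Mcm2, Mcm6, Pcna, Ccnd1, Cdk4, Cdk6, Cdkn1a and Cdkn1b (for CD4 status as lowest, median and highest; Tie2Cre and WT values stand with their other comparisons) and for the 3 members of smallest p per comparison with a mean of at least 1 CPM. Members named only because their groups did not overlap (Cenpe, Ccna2, Aurka, Rrm2 in TCRKO) and the markers Col6a2 and Krt8 were chosen after their values were seen. The same holds for Mcm3, Mcm4, Mcm5 and Mcm7 in the CD4 comparison. Other genes named (Ccnd2, Ube2c, Gins2, Ttk and Ckap2l) were picked, after their values were seen, from the 2 of smallest p per list and comparison. The rest of those are not given. Alternatives were DESeq2 1.42.0, limma-voom 3.58.1 with sample weights, RLE factors, no filter, protein-coding genes only, other library sets and leaving out each library. Replicate libraries differed by far more than sampling noise (chi-square per degree of freedom 15.9 to 544), so none was counted as a duplicate. Marker lists of fibroblasts, pericytes, and erythroid cells and platelets were also summed, at 0.425 to 87.5, 31.1 to 103 and 0.531 to 12.7 CPM per library.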

Additional observations from a re-analysis of the deposited data

Results flagged for a closer look

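In 44 groups of 4 libraries (the named members and the summed S phase and mitotic levels, in WT and in Tie2Cre_H2Abf), 3 held a library that stood far from the others by Dixon's criterion. Chance alone sets apart about 1 group in 20. Mki67 was at 44.7 CPM in Tie2Cre_H2Abf_9582, below the other 3 libraries of that background at 54.5 to 56.4 CPM. Ccnb1 was at 8.83 CPM in Tie2Cre_H2Abf_9589, above the others at 3.56 to 4.27 CPM. Cdk6 was at 24.4 CPM in WT_9749, above the other WT libraries at 10.7 to 12.6 CPM.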

How the results depend on the processing

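The count of members called was 0 in each of the 7 comparisons and under every alternative run, with the exception of DESeq2 in TCRKO against WT, which called 1 (Mki67, log2 change -1.23, adjusted p 0.00334 by DESeq2). Over 292 estimates of named members under alternatives, 0 turned direction. These members were picked for the smallest p, and most alternatives reuse nearly the same libraries, so a steady direction was likely beforehand. The CPM log2 ratios of deficient to competent means for Cdk1 (0.01) and Cdk4 (-0.00) each changed sign in 10 recalculations with 1 library left out. The median log2 change of the members in CD4KO against WT was 0.34; it was 0.81 with limma-voom and 0.08 to 0.88 with 1 library left out, the highest without CD4KO_9768. In CD8KO against WT it was 0.09, 0.70 with limma-voom and -0.12 with DESeq2. In Tie2Cre against WT it was -0.22, 0.32 with limma-voom and 0.35 without WT_9771 and Tie2Cre_9501. The causes were not tested. Counts over all genes moved more: DESeq2 called 4, 89, 172, 81, 53 and 80 genes for CD4 status, CD4KO, TCRKO, CD8KO, Tie2Cre_H2Abf and Tie2Cre against their controls and 261 for any difference, where edgeR called 0, 0, 4, 0, 3, 0 and 9. Without a filter the count for any difference was 675. RLE factors moved the median over all genes in Tie2Cre_H2Abf against Tie2Cre from -0.24 to -0.43 and in CD8KO against WT from -0.18 to -0.37. In the deposited TPM the log2 ratio of deficient to competent means had the other sign for Cdkn1a (-0.28), Cdk1 (-0.77), Mcm6 (-0.95), Mcm2 (-0.12), Ccnd1 (-0.05) and Cdkn1b (-0.08). In TPM without CD8KO_9752, an alternative chosen after seeing the data, these were 0.48, 0.07, 0.11, 0.31, 0.39 and -0.13. The common biological coefficient of variation between libraries was 0.995. Depth limits the levels: 23 of 42 members were at 0 in some library, where a level under the floor of 3 counts (0.128 to 2.46 CPM) was not detectable. No paired analysis was possible because no library number is shared between backgrounds.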
